A study of Mus musculus with 16 samples.

Results

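The genes described here make cholesterol and fatty acids or set the activity of that synthesis through the sterol regulatory element-binding proteins (SREBPs). They were chosen by name, 31 genes in all, as the enzymes of the mevalonate, sterol and fatty acid pathways and the regulators around the SREBPs. Of these 30 had a probe set annotated to that gene alone and all 30 were bright enough to test, among 11908 genes tested in all. The remaining member, the cytosolic acetoacetyl-CoA thiolase Acat2, had no such probe set in the annotation used and was not analysed here. The 30 genes were read by 70 single-gene probe sets, of which 57 were above the array median on at least 4 arrays. Each gene is given by its probe set with the highest mean, and 21 of the 30 had more than 1.

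RNA came from macrophages sorted from perigonadal adipose tissue of C57BL/6J mice aged 12 to 14 weeks. Lean mice were Lep +/+ and obese mice were Lep ob/ob, which lack leptin from birth, so that leptin loss and obesity cannot be told apart in this model. FB macrophages carry F4/80 and CD11b without CD11c, FBC macrophages carry all of these, and each population of each genotype was hybridised to 4 arrays after RNA amplification in 2 rounds. The design text gives 4 lean and 4 obese mice as the source of both populations, so p-values measure the spread between arrays that stand for mice.

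Levels are log2(intensity + 16) after quantile normalization, changes are differences of group means ± SE from a limma fit of all 16 arrays, and the Benjamini-Hochberg adjustment ran over all 11908 genes with a threshold of 0.05. The added constant understates the change of dim genes. Fewer cells of a type and less RNA per cell cannot be told apart in sorted bulk samples. The CD11c gene Itgax was at 8.55 to 9.31 on the FB arrays and 9.69 to 11.48 on the FBC arrays, and the macrophage gene Adgre1 was at 11.94 or higher on all of them. The 3' to 5' actin signal ratio, a measure of RNA integrity, stood out on the fourth array of Lean-FB (53.3), of Lean-FBC (48.0) and of Obese-FB (45.0), and was 1.15 to 10.9 elsewhere. The summed intensity of 11 adipocyte markers moved with genotype. It was 1351 to 6532 on lean arrays, where arrays 4 of both populations were lowest, and 380 to 916 on obese arrays. Car3 was the brightest of them, with means of 11.92 and 11.78 in lean and 7.60 and 8.15 in obese FB and FBC. Adipoq, Retn, Plin4 and Cidec were also lower in both obese populations. Lep (4.59 and 5.00 in lean, 5.60 and 6.13 in obese), Lipe and Acvr1c were higher, and Pck1, Slc36a2 and Aqp7 went both ways. Acvr1c and Aqp7 were below the median on every array. The summed intensity of 7 macrophage markers was 37758 to 38969 on Obese-FBC arrays and 21525 to 31135 on all others. By group means Csf1r (13.57 in Obese-FBC, 13.55 to 13.63 in the other groups) was not highest there. Nor was the CD11b gene Itgam (7.79, against 7.73 to 7.89). Other marker sums also separated groups. The sum of 9 dendritic cell markers was 7901 to 13148 in Lean-FBC and 3460 to 6561 in Obese-FBC. It was 3367 to 3872 in Lean-FB and 1096 to 1626 in Obese-FB. Xcr1 of that list was below the median on every array. Fscn1 had means of 10.15 and 12.21 in lean and 7.92 and 11.18 in obese FB and FBC. Flt3 went the other way with genotype, at 6.56 and 7.14 in lean and 7.54 and 8.15 in obese cells. The sum of 7 monocyte markers was 34925 to 48686 in Obese-FB and 9622 to 15997 in Obese-FBC, and that of 5 B cell markers 5599 to 7748 in Lean-FBC and 1906 to 3277 in Obese-FBC. The part of these signals in the results below was not tested.

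SREBPs are made as membrane proteins of the endoplasmic reticulum. Scap carries them to the Golgi when sterols are low, where proteases release the part that enters the nucleus and turns on synthesis genes, and the Insig proteins hold Scap back when sterols are high. Srebf2 is known mainly for cholesterol synthesis and Srebf1 for fatty acid synthesis. Because most enzymes of these pathways share this control, their mRNAs are known to move together when cell sterol changes, and macrophages that take up lipid are one setting in which this has been studied.

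SREBPs bind near start sites together with factors at CCAAT and GC boxes. Promoter windows from RefSeq (GRCm38.p6, 250 bases before to 50 after each start) were found for 25 of the 31 members, with 33 windows. They are shown for the members whose changes passed the threshold and have a window, and for Hmgcs1, chosen after the search because it alone matched the sterol element core. Capitals mark matches, on either strand, to CCAAT, the GC box GGGCGG, the E-box CACGTG or the sterol element core TCACNCCAC, and the 250 bases before the start are given 5′ to 3′ on the gene's strand.
Msmo1, chr8:64733579-64733828, minus strand: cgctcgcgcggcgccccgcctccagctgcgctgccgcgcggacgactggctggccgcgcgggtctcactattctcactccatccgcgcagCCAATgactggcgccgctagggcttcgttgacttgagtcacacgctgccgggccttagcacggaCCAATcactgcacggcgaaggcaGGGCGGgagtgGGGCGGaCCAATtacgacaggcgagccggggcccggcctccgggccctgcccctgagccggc
Hsd17b7, chr1:169969206-169969455, minus strand: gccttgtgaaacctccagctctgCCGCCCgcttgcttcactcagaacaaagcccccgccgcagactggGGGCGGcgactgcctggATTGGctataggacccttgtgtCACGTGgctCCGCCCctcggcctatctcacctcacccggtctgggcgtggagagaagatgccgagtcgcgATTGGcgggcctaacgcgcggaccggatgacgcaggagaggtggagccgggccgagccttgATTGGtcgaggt
Lss, chr10:76531355-76531604, plus strand: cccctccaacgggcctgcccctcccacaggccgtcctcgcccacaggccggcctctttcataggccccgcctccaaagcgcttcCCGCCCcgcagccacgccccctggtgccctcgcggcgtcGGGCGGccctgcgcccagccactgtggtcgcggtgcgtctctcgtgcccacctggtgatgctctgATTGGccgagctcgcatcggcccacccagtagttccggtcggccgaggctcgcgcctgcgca
Hmgcs1, chr13:119690101-119690350, plus strand: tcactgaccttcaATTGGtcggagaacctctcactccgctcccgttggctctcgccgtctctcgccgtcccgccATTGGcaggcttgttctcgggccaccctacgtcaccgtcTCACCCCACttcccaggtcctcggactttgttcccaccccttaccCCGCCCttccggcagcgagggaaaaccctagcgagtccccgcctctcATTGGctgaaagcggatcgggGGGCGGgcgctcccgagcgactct
Msmo1, Hsd17b7 and Hmgcs1 each held 3 CCAAT matches in these 250 bases, and Lss held 1 match beside 2 GC boxes. A CCAAT match was present in 21 of the 33 member windows (63.6%) and in 37.4% of all 32851 windows in the table. A GC box was present in 25 member windows (75.8%) against 35.7% of all windows, and the E-box in 6 (18.2%) against 7.15%. The E-box in Hsd17b7 starts at position -143 from the start site. The sterol element core was found in 1 member window (3.03%), that of Hmgcs1 at position -137, against 1.24% of all windows, and a longer form of the sterol element in 0 member windows against 0.0913%. These matches describe the letters in the windows and say nothing of binding.

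In obese FBC macrophages 3 enzymes of the sterol branch rose, and no other member passed. Msmo1, the oxidase that removes methyl groups at carbon 4 of the sterol ring, rose by 1.09 ± 0.22 (2.13-fold). Hsd17b7, the ketone reductase of the same demethylation complex, rose by 1.04 ± 0.32, and Lss, the cyclase that forms lanosterol from squalene epoxide, by 0.55 ± 0.17. By limma the adjusted p was 0.00408 for Msmo1, 0.0378 for Hsd17b7 and 0.0448 for Lss. These 3 of 30 members compare with 14.1% of all genes tested called in either direction and 8.12% called higher, so the share called among members was near the background. The median change of the members was 0.07, and that of all genes tested 0.08. At an unadjusted p under 0.05 there were 7 members with positive and 2 with negative values, where 28.9% of all genes had such a p. Lean and obese FBC arrays did not overlap for 4 members that were higher (12.4% of all genes) and 1 that was lower (7.61%), namely Lss, Msmo1, Ebp and Fads1, and Fasn. The count called was 1 without the filter on dim genes (8% of all genes called), 0 with a gene's probe sets averaged (13.6%), 1 with all probe sets fitted singly (5.95%), 5 without the 3 arrays of high actin ratio (21.1%) and 7 with array weights (34.6%).

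**Figure D1:**
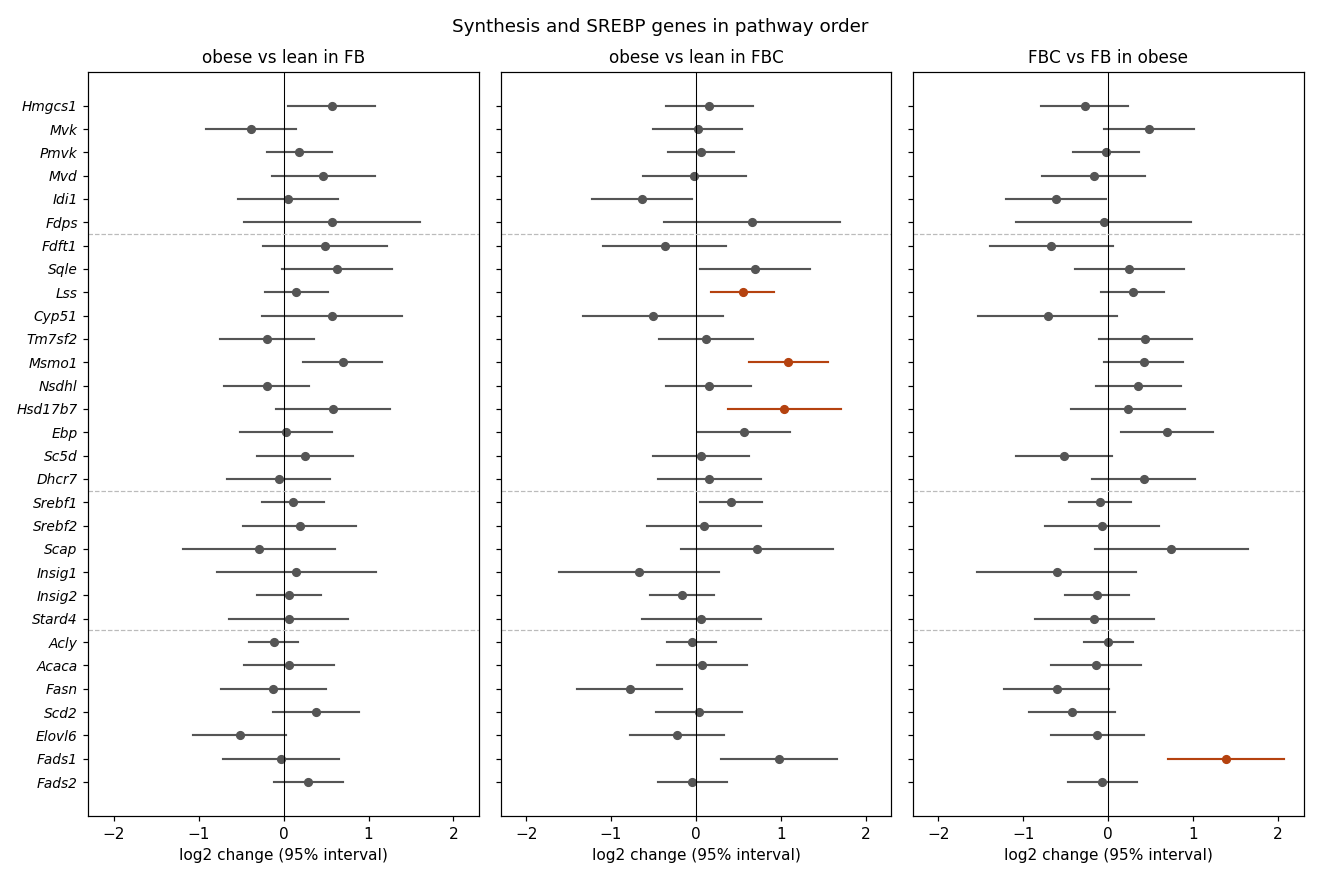
Log2 change of each of the 30 tested genes with its 95% interval, for obese against lean FB, obese against lean FBC and obese FBC against obese FB macrophages, 4 arrays a group. Genes run down in pathway order, dashed lines separate mevalonate, sterol branch, regulator and carrier, and fatty acid genes, and orange marks the members called by limma. Msmo1, Hsd17b7 and Lss are called in the middle panel and Fads1 in the right one.

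Msmo1 read 8.16, 8.61, 8.66 and 8.27 on the 4 lean FBC arrays and 9.81, 9.24, 9.29 and 9.71 on the obese FBC arrays. Every obese FBC array lay above every lean one. In FB macrophages Msmo1 was at 8.75, 8.34, 7.98 and 8.52 in lean and 9.11, 9.44, 9.22 and 8.61 in obese mice, where the lowest obese array, number 4, fell inside the lean range. Its FB change was 0.70 ± 0.22 (adjusted p = 0.0724 by limma), and leaving out the 3 arrays of high actin ratio gave 0.90 (adjusted p = 0.0161 by limma). The obesity changes of Msmo1 in FBC and FB differed by 0.39 (95% interval -0.27 to 1.05), which did not pass. A second, dim Msmo1 probe set, above the median on 2 of 16 arrays, gave 0.26 ± 0.37 in FBC, and with both averaged the adjusted p was 0.0551 by limma.

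Hsd17b7 was spread more widely. It read 8.24, 7.79, 7.32 and 7.81 in lean FBC and 9.85, 8.25, 8.08 and 9.15 in obese FBC, where arrays 1 and 4 were highest and arrays 2 and 3 lay near or below array 1 of the lean mice. Its FB values were 7.96, 8.12, 7.99 and 7.98 in lean and 8.98, 8.69, 8.56 and 8.15 in obese mice. All obese FB arrays lay above all lean FB arrays, yet the change of 0.58 ± 0.32 did not pass (adjusted p = 0.321 by limma). Hsd17b7 was the only 1 of 30 members without overlap in FB, and the share of all genes is not given for that comparison. The Hsd17b7 probe set read here is of a type whose probes may match other transcripts, as are those of Lss and Fdft1. Of 3 further Hsd17b7 probe sets, 2 gave 0.71 ± 0.31 and 0.52 ± 0.29 in FBC and a dim one 0.03 ± 0.20. The FBC call ended without lean FBC array 2, 3 or 4 or obese FBC array 1 or 4, with adjusted p of 0.0593 to 0.104 by limma. It also ended with the actin ratio as a covariate, at 0.93 (adjusted p = 0.0764 by limma), without the filter on dim genes (0.0533), with probe sets averaged (0.0694) and with all probe sets fitted singly (0.0645).

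Lss read 7.06, 7.18, 6.84 and 7.47 in lean FBC and 7.77, 7.50, 7.48 and 8.0 in obese FBC. The groups did not overlap, though the highest lean and the lowest obese array lay close together. In FB it was at 6.97 to 7.43 in lean and 7.33 to 7.46 in obese mice. The call was narrow. It ended without lean FB array 2 or 3, lean FBC array 1, 2 or 3, obese FB array 1, 2 or 3 or obese FBC array 1, 2 or 4, with adjusted p of 0.0507 to 0.131 by limma, and the mean of its 3 probe sets gave 0.20 (adjusted p = 0.397 by limma). It also ended without the filter on dim genes (0.0636), with cyclic loess (0.0643) and with all probe sets fitted singly (0.0778).

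**Figure D2:**
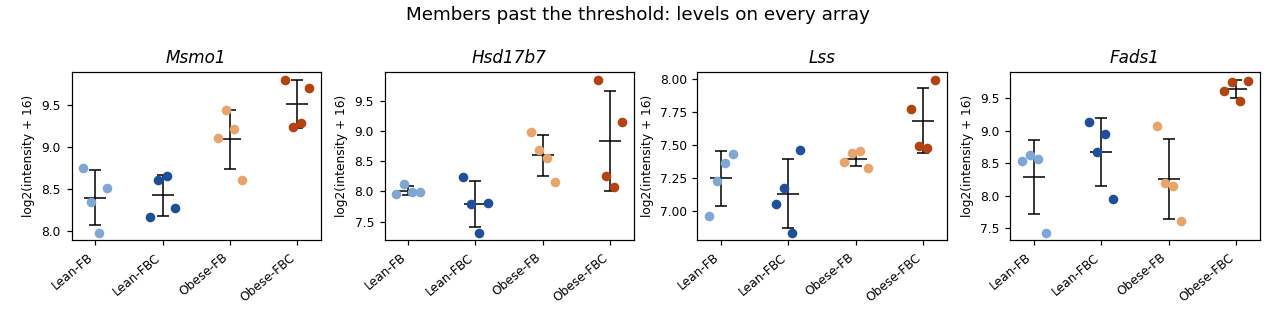
Levels, log2(intensity + 16), of Msmo1, Hsd17b7, Lss and Fads1 on each of the 16 arrays by group. Points are arrays in order of their number and bars are mean ± SD over the 4 arrays; obese FBC arrays are highest on average for all 4 genes, and do not overlap lean FBC for Msmo1, Lss and Fads1.

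Other enzymes of the sterol branch gave mixed values in obese FBC. Sqle, the rate-setting squalene epoxidase, changed by 0.70 ± 0.31 (adjusted p = 0.141 by limma), with 8.52, 8.30, 8.44 and 8.44 in lean and 9.72, 8.69, 8.46 and 9.61 in obese mice. Its arrays 1 and 4 were high, as for Hsd17b7. Ebp, the isomerase that shifts the double bond of the sterol ring, did not overlap between lean FBC (9.46 to 9.89) and obese FBC (10.13 to 10.39), with a change of 0.57 ± 0.26 (adjusted p = 0.153 by limma). It was called without the 3 arrays of high actin ratio, at 0.55 (adjusted p = 0.046 by limma). Cyp51, the lanosterol demethylase, and Fdft1, squalene synthase, had negative values of -0.50 ± 0.39 and -0.37 ± 0.34 that did not pass. Tm7sf2, Nsdhl, Sc5d and Dhcr7, a further reductase, a dehydrogenase, a desaturase and the last reductase on the way to cholesterol, lay between 0.06 and 0.16 (adjusted p of 0.715 to 0.92 by limma).

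The mevalonate enzymes, upstream of the branch, showed no call in obese FBC. Hmgcs1, which condenses acetoacetyl-CoA with acetyl-CoA at the entry of the pathway, read 12.05, 11.58, 11.58 and 11.93 in lean FBC and 12.10, 11.42, 11.66 and 12.60 in obese FBC, a change of 0.16 ± 0.24. Idi1, the isopentenyl diphosphate isomerase, read 10.19, 9.81, 9.95 and 10.03 in lean and 9.81, 8.70, 8.78 and 10.15 in obese FBC. Its change was -0.64 ± 0.28 (adjusted p = 0.142 by limma), and without obese FBC array 4 it was -0.90 (adjusted p = 0.037 by limma). The kinases Mvk and Pmvk, the decarboxylase Mvd and farnesyl diphosphate synthase, Fdps, lay between -0.02 and 0.66 with adjusted p of 0.395 to 0.973 by limma.

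In FB macrophages 0 of 30 members passed by limma, against 5.89% of all genes. At an unadjusted p under 0.05 there were 2, Hmgcs1 (0.57 ± 0.24) and Msmo1, both positive, where 20.2% of all genes had such a p. Hmgcs1 read 11.69, 11.36, 11.45 and 12.12 in lean and 11.89, 12.40, 12.32 and 12.29 in obese FB. Lean array 4 alone lay inside the obese range. Of the 17 mevalonate and sterol branch enzymes 13 had a positive value, among them Sqle (0.63 ± 0.31), Cyp51 (0.57 ± 0.39), Fdps (0.57 ± 0.49) and Fdft1 (0.49 ± 0.34); the median was 0.33 for the mevalonate genes and 0.26 for the sterol branch, against 0.03 for all genes. This comparison turned on a few arrays. Without the 3 arrays of high actin ratio Msmo1 and Sqle (0.98, adjusted p = 0.0429 by limma) were called, with 17% of all genes called. Without lean FB array 4 alone Cyp51 (1.01) and Sqle (0.91) were called, and without obese FB array 4 Msmo1 was; all genes called went from 701 to 1501 and 763 in these fits. With array weights 11 of 30 were called higher, including Hmgcs1, Sqle, Fdft1 and Cyp51, but 33.5% of all genes were called under that setting.

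Fads1, the delta-5 desaturase of long polyunsaturated fatty acids, was the member that rose in obese FBC against obese FB macrophages. It read 9.08, 8.19, 8.15 and 7.61 on the obese FB arrays and 9.62, 9.75, 9.46 and 9.77 on the obese FBC arrays. All FBC arrays lay above all FB arrays and close together. The dendritic cell sum was likewise higher and the monocyte sum lower on every obese FBC array. Of the dendritic markers Fscn1 differed most, with means of 7.92 in obese FB and 11.18 in obese FBC. Kmo (7.04 and 7.02), Batf3 (8.48 and 8.43) and Xcr1 were not higher in FBC. The part of these signals in the Fads1 change was not tested. Fads1 changed by 1.39 ± 0.32 (2.63-fold, adjusted p = 0.0138 by limma). It was 1 of 30 members called, against 8.39% of all genes called in either direction and 5.11% called higher; at an unadjusted p under 0.05 there were 2 members with positive and 1 with negative values (25.1% of all genes). The arrays did not overlap for 3 members, Lss, Ebp and Fads1, all higher in FBC (11% of all genes). The count called was 0 with probe sets averaged (8.51% of all genes called), 2 with array number as a replicate block (13.9%), where the labels do not state that equal numbers are 1 mouse, and 3 with array weights (18.5%). Against lean FBC, which read 9.13, 8.67, 8.95 and 7.95, the same obese FBC arrays were higher by 0.97 ± 0.32, just short of the threshold (adjusted p = 0.054 by limma); both comparisons share the obese FBC arrays. With array number taken as the mouse and fitted as a random block this change was called (adjusted p = 0.048 by limma), as it was with the stricter filter (0.0486), array weights (0.00131) and without lean FB array 4, lean FBC array 1 or obese FB array 1 or 4 (0.0262 to 0.0461). Lean FB arrays read 8.53, 8.62, 8.56 and 7.43. The obesity change in FBC exceeded that in FB by 1.0 (95% interval 0.04 to 1.97), which did not pass among all genes (adjusted p = 0.356 by limma). A second, dimmer Fads1 probe set gave 0.15 ± 0.25 for obese FBC against FB and 0.53 ± 0.25 for obese against lean FBC.

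The level of Fads1 moved with the actin ratio. As deviations from group means, its correlation with the log2 ratio was -0.84, and that of Stard4 was -0.77. Of all genes tested 6.55% were below -0.7 and 4.89% above 0.7. The arrays of high ratio had the lowest Fads1 value of their group, 7.43, 7.95 and 7.61, and none of them is an obese FBC array. Without them the obese FBC to FB change was 1.17 (adjusted p = 0.00302 by limma) and the obese to lean FBC change 0.73 (adjusted p = 0.0262 by limma). With the actin ratio as a covariate the obese FBC to FB change was 0.95 (adjusted p = 0.019 by limma). The obese to lean FBC change of Fads1 was not called with that covariate. Without obese FB array 4 alone the adjusted p of the obese FBC to FB change was 0.0509 by limma. The sterol carrier Stard4, which moves cholesterol between membranes, was also lowest of its group on each of these arrays, at 7.41, 7.45 and 7.93. Fasn, the fatty acid synthase, was highest of its group on the lean pair, at 8.68 and 8.66.

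**Figure D3:**
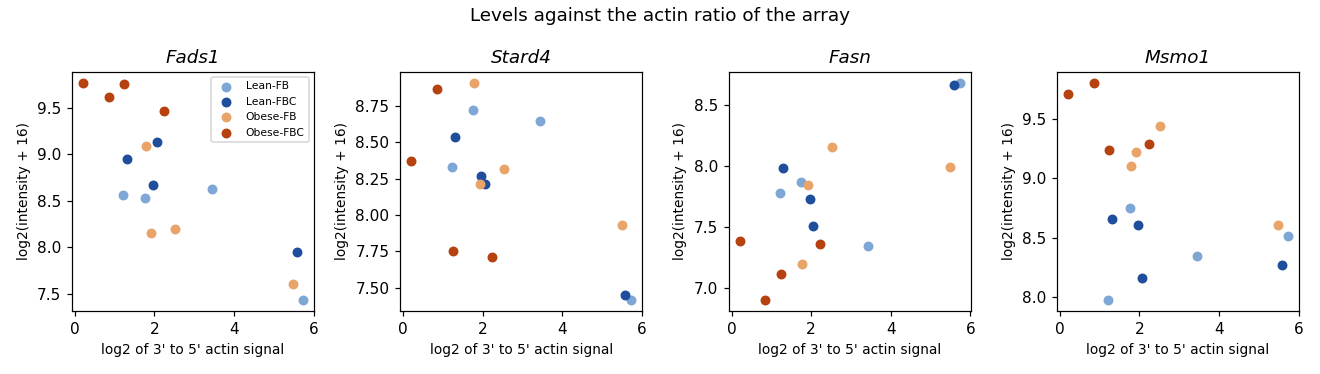
Levels of Fads1, Stard4, Fasn and Msmo1, log2(intensity + 16), against the log2 ratio of 3' to 5' actin signal of the same array, 16 arrays coloured by group. The 3 arrays to the right hold the lowest Fads1 and Stard4 values of their groups, and the 4 obese FBC arrays hold the highest Fads1 values.

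The other fatty acid genes did not pass in any of the 5 comparisons by limma. Fasn read 7.51, 7.73, 7.99 and 8.66 in lean FBC and 6.90, 7.11, 7.36 and 7.38 in obese FBC. No obese array reached the lowest lean one, and the change was -0.78 ± 0.29 (adjusted p = 0.0859 by limma). It was called with array weights (-0.57, adjusted p = 0.038 by limma) and without lean FB array 4 (adjusted p = 0.0462 by limma), and stood at -0.55 without the 3 arrays of high actin ratio (adjusted p = 0.104 by limma). In FB it was at 7.35 to 8.68 in lean and 7.20 to 8.16 in obese mice (-0.12 ± 0.29). Against obese FB the obese FBC value of Fasn was -0.61 ± 0.29 (adjusted p = 0.21 by limma), and with array number as a replicate block it was called (adjusted p = 0.0486 by limma). Acly, which makes cytosolic acetyl-CoA from citrate, was the steadiest member, at 12.08 to 12.44 on all 16 arrays; its 4 pairwise changes lay between -0.12 and 0.00 and the largest, for obesity in FB, had a 95% interval of -0.41 to 0.17. Acaca, which makes malonyl-CoA, lay between -0.15 and 0.07 in the 4 pairwise comparisons. Scd2, a stearoyl-CoA desaturase, lay between -0.43 and 0.38, the elongase Elovl6 between -0.52 and -0.13, and the delta-6 desaturase Fads2, above the median on 8 of 16 arrays, between -0.07 and 0.29.

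The regulators of the pathway did not pass in any comparison by limma. Srebf1 read 8.82, 9.29, 9.41 and 9.38 in lean FBC, below the lean FB values of 9.54, 9.78, 9.57 and 9.59 on every array. That difference was -0.39 ± 0.17 (adjusted p = 0.577 by limma). Srebf1 was the only 1 of 30 members without overlap between lean FB and FBC, and the share of all genes is not given for that comparison. In obese mice Srebf1 was at 9.50, 9.89, 9.94 and 9.59 in FB and 9.64, 9.38, 9.82 and 9.70 in FBC, which overlapped, and the obesity change in FBC was 0.41 ± 0.17 (adjusted p = 0.124 by limma). One probe set reads the gene and its transcript forms were not separated here.

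Srebf2 overlapped between all groups, with 6.68, 7.58, 7.60 and 7.38 in lean FB, 7.17, 7.09, 6.97 and 8.06 in lean FBC, 7.38, 7.94, 7.87 and 6.80 in obese FB and 7.77, 7.10, 6.93 and 7.88 in obese FBC. Its 4 pairwise changes lay between -0.08 and 0.19. The escort Scap read 9.02, 9.70, 9.55 and 8.58 in lean FB, 8.38, 8.99, 9.16 and 9.25 in lean FBC, 8.61, 9.78, 9.73 and 7.58 in obese FB and 8.93, 9.55, 10.26 and 9.91 in obese FBC. Its obesity change in FBC of 0.72 ± 0.43 did not pass, and a dim second probe set gave -0.80 ± 0.28.

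Insig1, itself a known SREBP target as well as its brake, was among the most variable members. It read 9.73, 9.63, 9.66 and 10.18 in lean FB, 10.58, 9.87, 9.41 and 10.18 in lean FBC, 8.99, 10.21, 10.43 and 10.15 in obese FB and 8.70, 10.11, 8.08 and 10.46 in obese FBC. The obese FBC arrays spread widest, and the change of -0.67 ± 0.44 had a 95% interval of -1.61 to 0.27. Insig2, the related brake, read 9.56, 9.63, 9.52 and 9.53 in lean FB, 10.00, 9.55, 9.55 and 9.53 in lean FBC, 9.97, 9.39, 9.37 and 9.77 in obese FB and 9.69, 9.44, 9.18 and 9.65 in obese FBC. Its changes lay between -0.16 and 0.10. Stard4 changes lay between -0.16 and 0.06, and its other probe sets gave -0.77 ± 0.37 and -0.25 ± 0.24 for obesity in FBC.

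**Figure D4:**
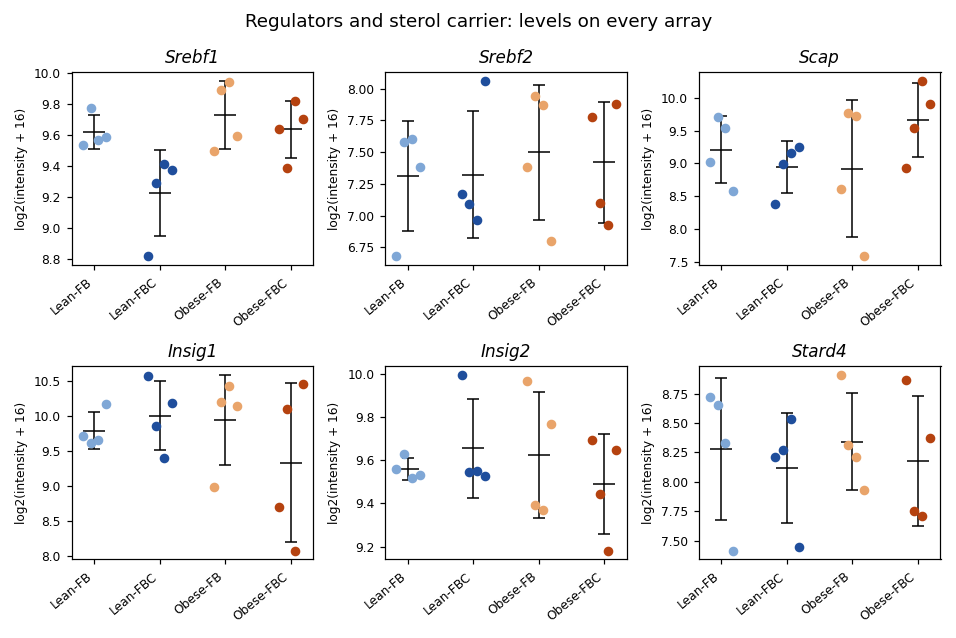
Levels, log2(intensity + 16), of Srebf1, Srebf2, Scap, Insig1, Insig2 and Stard4 on each of the 16 arrays by group, with mean ± SD over 4 arrays. All pairs of groups overlap for every gene except Srebf1, whose lean FBC arrays lie below all lean FB and all obese FB arrays, and the obese FBC arrays of Insig1 run from 8.08 to 10.46.

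Between FBC and FB macrophages of lean mice 0 of 30 members were called by limma, against 0.193% of all genes. At an unadjusted p under 0.05 there was 1, Srebf1, where 8.2% of all genes had such a p. Member changes ran from -0.42 (Elovl6) to 0.39 (Fads1). The median 95% interval reached 0.56 to either side of a change. Differences smaller than a member's own interval could not be told from no change. Whether the obesity change was unequal in FBC and FB was tested as an interaction, which called 0 of 30 members by limma, against 0.16% of all genes, and had 1, Fads1, at an unadjusted p under 0.05 (13.2% of all genes). With array weights Fads1 was called in it, where 12.9% of all genes were.

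Arrays of the same group also differed. Of the 17 mevalonate and sterol branch enzymes 15 were above their group mean on obese FBC array 1 and 14 on array 4, but 2 on array 2 and 1 on array 3. Their mean deviation from the group was 0.26 and 0.33 on the former and -0.23 and -0.35 on the latter. On lean FB array 4 the mean deviation was 0.36, with 13 of 17 above, and on lean FB array 3 -0.23, with 3 of 17 above. On obese FB array 2 it was 0.19, with 15 of 17 above, and on obese FB array 4 -0.18, with 4 of 17 above. Lean FBC array 4 had 13 of 17 above, with a mean deviation of 0.08. Lean FB array 4 also had a summed eosinophil marker intensity of 4995, where arrays 1 to 3 of that group had 284 to 454, a monocyte sum of 37545 against 21684 to 22896 and a fibroblast sum of 14567 against 31380 to 37054. The fibroblast sum was 24943 and 27963 on obese FBC arrays 2 and 3 and 11709 and 18169 on arrays 1 and 4, and the mesothelial sum 453 and 629 against 213 and 136. The actin ratio was 1.80 and 1.15 on obese FBC arrays 1 and 4 and 2.37 and 4.69 on arrays 2 and 3; the part of these signals in the pattern was not tested.

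Within groups several of these enzymes went up and down together. Over the 16 arrays, taken as deviations from group means, the correlation was 0.95 between Sqle and the desaturase Sc5d, 0.91 between Cyp51 and Sc5d, 0.86 between Fdft1 and Sqle, 0.84 between Hmgcs1 and Idi1 and 0.83 between Sqle and Cyp51. These pairs share arrays and hence any quality difference between arrays. Without the 3 arrays of high actin ratio the same pairs stood at 0.94, 0.88, 0.92, 0.84 and 0.80. Over all 136 pairs of mevalonate and sterol branch enzymes the median correlation was 0.32 and 23.5% of pairs were above 0.5, while over all pairs of the 11908 genes the median was 0.01 and 9.53% were above 0.5. Without the 3 arrays these values were 0.30 and 29.4% for the enzymes and 0.01 and 11.9% for all genes. Dhcr7 alone of the 17 was negative against the mean of the others, at -0.29, and Mvk stood at 0.07, and the 7 fatty acid members had a median of -0.09 over their 21 pairs. Of the fatty acid members Scd2 (0.73) and Elovl6 (0.54) went with the mean of the sterol enzymes. Acaca (0.37), Fasn (0.36) and Fads2 (0.19) stood lower, and Fads1 (-0.27) and Acly (-0.48) were negative. Elovl6 and Msmo1 correlated at 0.91, and at 0.93 without the 3 arrays. That pair was the highest of 119 pairs of a mevalonate or sterol enzyme with a fatty acid member. The median of these pairs was 0.13 and 14.3% were above 0.5. Among the regulators Srebf2 (0.59) and Insig1 (0.49) went with that mean, whereas Insig2 stood at 0.18, Srebf1 at 0.13, Stard4 at 0.02 and Scap at -0.07.

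**Figure D5:**
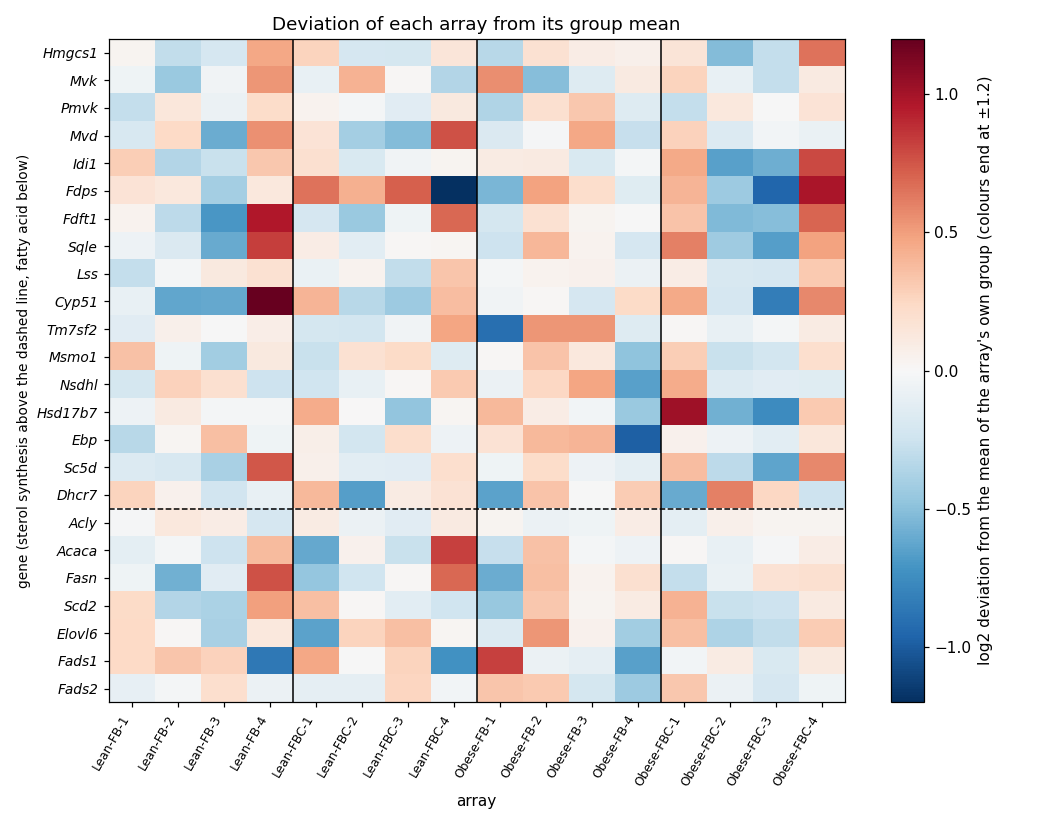
Deviation of each array from the mean of its own group, in log2 units, for the 17 sterol synthesis and 7 fatty acid genes (rows) on the 16 arrays (columns, groups separated by lines). Most sterol genes are above the group mean on Lean-FB-4, Lean-FBC-1, Lean-FBC-4, Obese-FB-2, Obese-FB-3, Obese-FBC-1 and Obese-FBC-4. The fewest are above it on Obese-FBC-3, Obese-FBC-2, Lean-FB-3 and Obese-FB-4.

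Beyond the members, 22 of 26 listed further genes of the SREBP system and of lipid synthesis were tested. In obese FBC 4 rose and 0 fell by limma, against 14.1% of all genes called in either direction and 8.12% called higher. The largest 3 were Rnf139 (1.29 ± 0.32), Mbtps2 (1.01 ± 0.20) and Pcyt2 (0.78 ± 0.22). Rnf139 is a ubiquitin ligase of the endoplasmic reticulum, Mbtps2 the site-2 protease that completes SREBP release, and Pcyt2 an enzyme of phosphatidylethanolamine synthesis. The highest adjusted p of these was 0.0258 by limma. These genes, named because they were called, did not overlap between lean and obese FBC, where 12.4% of all genes were higher without overlap. In obese FB 0 rose and 1 fell (5.89% of all genes called), the lipogenic gene Thrsp (-1.90 ± 0.49, adjusted p = 0.0306 by limma). The summed intensity of adipocyte markers, like Thrsp, was lower on obese FB arrays (380 to 517) than on lean FB arrays (1901 to 5890). Car3 had means of 11.92 in lean and 7.60 in obese FB. Adipoq (6.86 and 5.19), Retn (6.71 and 4.91), Plin4 (6.89 and 5.71) and Cidec were also lower. Lep (4.59 and 5.60), Lipe, Acvr1c, Pck1, Slc36a2 and Aqp7 were higher, and all of these but Lipe were above the median on 6 arrays or fewer. The part of the adipocyte signal in the Thrsp value was not tested. In obese FBC against FB 0 rose and 1 fell (8.39% of all genes called), the cytosolic acetyl-CoA synthetase Acss2 (-0.95 ± 0.27, adjusted p = 0.0372 by limma), and in lean mice and in the difference of effects 0 passed by limma.

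Genes of the liver X receptors, which oxysterols activate when cell sterol is high and which drive cholesterol export, were read from a list of 12 of which 9 were tested. In obese FBC 3 rose and 0 fell by limma, where 14.1% of all genes were called and 8.12% were called higher. They were the exporter Abcg1 (1.14 ± 0.23), Apoc2 (1.11 ± 0.32) and the receptor Nr1h3 (0.84 ± 0.18), with the highest adjusted p at 0.0281 by limma. In obese FB 1 rose, Apoc2 (1.77 ± 0.32, adjusted p = 0.00297 by limma), and 0 fell, where 5.89% of all genes were called. Against obese FB, where 8.39% of all genes were called, obese FBC had higher Abcg1 (0.92 ± 0.23) and Nr1h3 (0.71 ± 0.18) and lower Apoc2 (-1.44 ± 0.32), with the highest adjusted p at 0.0206 by limma. The exporter Abca1 did not pass in any comparison by limma and stood at 0.25 ± 0.36 for obesity in FBC.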

How the data were processed

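Per the labels, RNA of sorted cells was amplified in 2 rounds and hybridised to Affymetrix mouse arrays. The authors deposited 1 linear intensity for each probe set. The submitters' processing notes name Affymetrix Expression Console, while its version, the summarization and the build were not given in the sources used here. The 2% trimmed mean was 250 on every array, and 0 columns were left out.

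Values were taken as log2(intensity + 16) and quantile-normalized. Of 45101 probe sets 34945 carried 1 gene symbol, 932 several and 9160 none, and 64 were controls. Gene names come from the platform annotation, checked by gene ID against a RefSeq table (34741 matched, 0 renamed). Each gene was its probe set of highest mean, and was tested where 4 or more of the 16 arrays exceeded their median. One limma model of 4 groups (12 residual degrees of freedom) gave 5 contrasts, and it was tested on simulated data. Same-numbered lean FB and FBC arrays correlated at 0.14 to 0.60 in their residuals, all above 0.1, and obese ones at -0.14 to 0.31; the design text names 4 mice a genotype, so array number was tried as a block on the assumption, which the labels do not state, that equal numbers are 1 mouse. Values on every array are given for the regulators and every member called; Hmgcs1, Idi1, Sqle and Fasn were added after their values were seen, and of the other lists at most 3 called genes with the largest change are named in a comparison. Members, lists and settings were chosen with earlier results of these data known. The number of arrays limits precision. The fits used limma 3.58.1 in R 4.3.3; figures were drawn with matplotlib 3.10.9 under Python 3.11.15.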

Additional observations from a re-analysis of the deposited data

Results flagged for a closer look

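Of 120 combinations of a member and a group, 7 had 1 array set apart from the other 3 by more than Dixon's 95% critical value, and chance gives about 1 in 20. Fdps was at 4.28 on Lean-FBC array 4, against 6.51 to 6.79 on the others, and at 5.81 on Lean-FB array 3, against 6.35 to 6.38. Fads1 was at 7.43 on Lean-FB array 4, against 8.53 to 8.62. Ebp was at 8.58 on Obese-FB array 4, against 9.73 to 9.97. Those at 4.28, 7.43 and 8.58 are the arrays of high actin ratio. Nsdhl was at 9.13 on Obese-FBC array 1, against 8.52 to 8.54, and Acly at 12.08 there, against 12.23 to 12.26. Insig2 was at 10.00 on Lean-FBC array 1, against 9.53 to 9.55.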

How the results depend on the processing

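The counts of members called moved as follows. For obesity in FB the count of 0 became 11 with array weights, 2 without the 3 arrays of high actin ratio and 0 to 2 on leaving out each array. For obesity in FBC the count of 3 became 1 without the dim filter, 0 with a gene's probe sets averaged, 7 with array weights, 5 without the 3 arrays and 1 with all probe sets fitted singly, the last chosen after seeing the data; it was 2 with cyclic loess or the actin covariate and 4 with the stricter filter or the random block; on leaving out each array it was 1 to 5. For obese FBC against FB the count of 1 became 0 with probe sets averaged, 3 with array weights, 2 with array number as a replicate block and 0 to 1 on leaving out each array. The difference of effects had 0 members and 1 with array weights. In lean mice the count was 0 under every setting run, the replicate block included. All genes called rose with array weights in all 5 comparisons, for example from 701 to 3987 in FB and from 1675 to 4115 in FBC. Without the 3 arrays they went from 701 to 2022 in FB, and from 19 to 298 for the difference of effects. With the replicate block they went from 23 to 51 in lean and from 999 to 1655 in obese mice, and from 19 to 230 for the difference of effects. In lean mice they were 37 with the stricter filter, 15 without the 3 arrays, 62 with the actin covariate, 74 with array number as a random block and 1324 with array weights. The actin covariate gave 1159 in FB, the random block 1746 in obese mice and 158 for the difference of effects, where no filter gave 3 and a pseudocount of 1 gave 4. On leaving out each array all genes called ran from 333 (without lean FB array 2) to 1501 (lean FB 4) in FB, 1040 (lean FBC 2) to 2011 (lean FB 4) in FBC, 8 (lean FB 2) to 34 (obese FB 1) in lean mice, 553 (obese FBC 2) to 1328 (lean FB 4) in obese mice and 2 (obese FB 3) to 349 (lean FB 4) for the difference of effects.

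Msmo1 in FBC was called under every setting except averaged probe sets and Fads1 in obese mice under every setting except that and without obese FB array 4. For obesity in FBC signs changed only where no call was made: with averaged probe sets Srebf2 stood at -0.13, Scap at -0.040 and Insig2 at 0.025, and on leaving out each array Srebf2 ran from -0.056 to 0.34. The cause of these changes was not tested. Medians of the members moved by less than the spread between arrays under every setting.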
